A study of Mus musculus with 6 samples.

Results

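The genes described here encode the granins *Chga*, *Chgb*, *Scg2*, *Scg3* and *Vgf* and the granule membrane proteins *Ptprn* and *Ptprn2*. They were picked by their symbols in the deposited gene table and are 7 of the 40914 genes with counts. All 7 passed the filter on low counts that left 15407 genes for testing. RNA of whole islets from WT mice and from heterozygous *Akita* mice was sequenced at P19-21. *Akita* mice carry 1 *Ins2* allele with the C96Y substitution in proinsulin and 1 WT allele, and WT mice carry both WT alleles. Each genotype had 3 libraries, each made from 120 ng of total RNA of the pooled islets of 3 mice, so that p-values measure the spread between pools. By the general islet protocol of the study, islets were picked by hand and recovered overnight in glucose-containing culture medium ahead of experiments. Its RNA methods do not repeat this step, so that levels may be those of islets after culture. The *Akita* allele is inherited and present in every cell, and is transcribed where *Ins2* is, that is in β-cells. Libraries are named after the count columns as WT1, WT2, WT3, AK4, AK5 and AK6.

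Granins are acidic proteins of the regulated secretory pathway that aggregate with hormones in the trans-Golgi network as calcium rises and pH falls, and so help to form the core of dense-core granules. Several are also precursors, which the prohormone convertases cut into peptides that are released with the hormone. *Ptprn* (IA-2, ICA512) and *Ptprn2* (phogrin, IA-2β) span the granule membrane, belong by sequence to the receptor-type tyrosine phosphatases, and are autoantigens in human type 1 diabetes. In the islet these genes are used by β-, α-, δ- and PP-cells alike, so that their levels in whole islets are sums over the endocrine cell types. In such bulk RNA, fewer cells of a type and less RNA per cell cannot be told apart.

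All positions are on GRCm38. *Chga* (ENSMUSG00000021194) spans chr12:102554969-102565027 on the plus strand and *Ptprn2* (ENSMUSG00000056553) spans chr12:116485720-117276849, also on the plus strand. *Chgb* (ENSMUSG00000027350) lies at chr2:132781278-132795079 on the plus strand. *Scg2* (ENSMUSG00000050711) at chr1:79434669-79440120 and *Ptprn* (ENSMUSG00000026204) at chr1:75247027-75264502 are on the minus strand of chromosome 1. *Scg3* (ENSMUSG00000032181) is at chr9:75643264-75683996 on the minus strand and *Vgf* (ENSMUSG00000037428) at chr5:137026392-137033351 on the plus strand. Of the exon bases of *Ptprn*, 4.45% overlap *Gm28294* on the opposite strand. The library kit does not mark strand, so reads of that stretch cannot be assigned to one of the pair. Exons of the other 6 genes overlap no other annotated gene.

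Several granin genes are textbook targets of cAMP signalling, through the cAMP response element TGACGTCA near their start sites. Promoter windows of 300 bases, from 250 before to 50 after the start site, were therefore read for 6 of the 7 genes from RefSeq (GRCm38.p6), while *Vgf* was not matched. The 120 bases directly before the start site are shown for the 3 most abundant granin genes and for the membrane pair *Ptprn* and *Ptprn2*, because the fold changes differed within each set. They run 5′ to 3′ on the strand of the gene, and capitals mark the core TGACG of the element on the strand shown or, as CGTCA, on the other strand. The full element is the overlap of both.
Chga, chr12:102554821-102554940, plus strand: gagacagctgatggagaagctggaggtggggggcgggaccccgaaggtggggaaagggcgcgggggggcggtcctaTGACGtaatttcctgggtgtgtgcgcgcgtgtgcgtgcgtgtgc
Chgb, chr2:132781522-132781641, plus strand: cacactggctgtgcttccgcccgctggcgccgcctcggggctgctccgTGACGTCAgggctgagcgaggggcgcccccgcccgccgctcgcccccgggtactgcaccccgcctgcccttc
Scg2, chr1:79440027-79440146, minus strand: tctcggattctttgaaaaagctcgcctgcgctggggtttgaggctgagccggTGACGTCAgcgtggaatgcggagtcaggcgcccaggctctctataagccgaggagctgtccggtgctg
Ptprn, chr1:75264209-75264328, minus strand: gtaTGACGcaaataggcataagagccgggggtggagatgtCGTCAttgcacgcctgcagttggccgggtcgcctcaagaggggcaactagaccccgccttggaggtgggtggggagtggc
Ptprn2, chr12:116485600-116485719, plus strand: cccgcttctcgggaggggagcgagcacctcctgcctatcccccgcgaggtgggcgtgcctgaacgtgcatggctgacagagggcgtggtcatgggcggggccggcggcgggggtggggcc

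The full element stood in the windows of 2 genes, *Chgb* with its first base 72 bases before the start site and *Scg2* with its first base 68 bases before it. A full element was found in 1.79% of the 32851 promoter windows of the same length. The core alone or within a full element was found in the windows of 5 genes and in 20.8% of all windows. In *Chga* it lay 44 bases before the start site, in *Scg3*, whose window is not shown, 30 bases before, and in *Ptprn* 117 and 80 bases before. The window of *Ptprn2* held neither motif, and nor did a second window listed for *Ptprn*. Such matches describe the sequence and are not evidence of binding.

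Library totals ran from 22069554 to 27043169 counts. The genes described here drew from 1316 to 258246 counts per library. Sampling of reads alone would give a coefficient of variation of at most 2.59% (*Vgf* in *Akita*), while the observed values within a genotype were 6.38% to 22.1%, so that the spread between pools and not the depth limits precision. Of the 15407 genes tested by limma-voom, 117 rose and 132 fell in *Akita* islets, counting those with an adjusted p (Benjamini–Hochberg) under 0.05. These counts rest on single libraries: without WT2, WT3 or AK6 there were 2, 1 and 0 higher genes and 5, 0 and 0 lower ones. The β-cell transcripts *Ins1* and *Ins2* marked the tissue in both genotypes, together taking 18.5% ± 0.81 of the counts in WT and 12.3% ± 0.50 in *Akita* islets (SD, n = 3). Counts per gene do not separate the alleles of *Ins2*, so they give no check of the genotype labels. Acinar transcripts differed between libraries of both genotypes. The summed level of 25 acinar markers, of which 24 were tested, was 7035, 412 and 8641 CPM in WT1, WT2 and WT3. In AK4, AK5 and AK6 it was 8972, 367 and 1679 CPM, where CPM are counts scaled to a common library size with TMM factors.

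Among the granins and granule membrane proteins, 1 gene (*Vgf*) fell and 6 did not pass the test. For comparison, 0.857% of all genes tested fell and 1.62% changed in either direction. None of the 7 was higher, either at the adjusted p or at an unadjusted p under 0.05, and limma-trend on log2 CPM also called none higher and *Vgf* lower. In 4 genes, *Chgb*, *Scg3*, *Vgf* and *Ptprn*, every *Akita* library was below every WT library, and these had an unadjusted p under 0.05. Over all genes tested 18.7% had an unadjusted p under 0.05, 8.88% on the lower and 9.81% on the higher side. Groups without overlap were seen in 12.2% of all genes tested in this direction and in 25.3% in either direction. The separation of *Chgb*, *Scg3* and *Ptprn* depends on the use of scaling factors. Their log2 fold changes were -0.53, -0.31 and -0.45 with relative log expression factors and -0.52, -0.30 and -0.43 with upper-quartile factors. As shares of all counts, without scaling factors, these 3 overlapped between genotypes (exact permutation test, two-sided, p = 0.2 each), and *Vgf* alone of the 7 was lower without overlap, as were 5.17% of all genes tested. The log2 fold change was below 0 in 5 genes and above 0 in 2, with a median of -0.31 beside -0.0011 over all genes tested. All levels below are TMM-scaled CPM and all fold changes are of *Akita* over WT.

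*Chga* encodes chromogranin A, the precursor of pancreastatin and other peptides. Its level was 7035, 7367 and 8969 CPM in WT1, WT2 and WT3, and 6416, 9460 and 9103 CPM in AK4, AK5 and AK6. The *Akita* libraries enclosed the WT ones, with AK4 the lowest and AK5 the highest of all 6. The means were 7791 ± 1034 CPM in WT and 8326 ± 1664 CPM in *Akita* islets (SD, n = 3). The log2 fold change of 0.08 (SE 0.17, 95% interval -0.32 to 0.49) did not pass the test (limma-voom, adjusted p = 0.843). Leaving out single libraries gave log2 values from -0.01 (without AK5) to 0.26 (without AK4).

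*Chgb*, encoding the related matrix protein chromogranin B, showed another pattern. It was measured at 6477, 6845 and 6024 CPM in WT1, WT2 and WT3 against 5226, 3393 and 5014 CPM in AK4, AK5 and AK6. All *Akita* values lay below all WT values, and AK5 stood well below the other 2. The mean of 6448 ± 411 CPM in WT compared with 4544 ± 1003 CPM in *Akita* islets, a log2 difference of -0.53 (SE 0.17, 95% interval -0.93 to -0.13). Over all genes this did not pass (limma-voom, adjusted p = 0.168). The log2 fold change ran from -0.64 without AK4 to -0.32 without AK5.

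*Scg2* encodes secretogranin II, the precursor of secretoneurin. Its values were 5133, 5901 and 5351 CPM in WT1, WT2 and WT3 and 4725, 6106 and 5461 CPM in AK4, AK5 and AK6. The groups overlapped fully, and the means of 5462 ± 396 CPM in WT and 5431 ± 691 CPM in *Akita* islets lay within the spread of either (SD, n = 3). The log2 fold change was -0.01 with a 95% interval of -0.28 to 0.26 (limma-voom, adjusted p = 0.966). Its sign depended on the scaling, with a value of 0.11 when libraries were scaled by their totals alone.

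*Scg3* encodes secretogranin III, which binds cholesterol-rich granule membrane and chromogranin A. Its libraries held 1081, 1266 and 1251 CPM in WT1, WT2 and WT3, and AK4, AK5 and AK6 held 876, 1057 and 976 CPM. The highest *Akita* library was just under the lowest WT library. From 1199 ± 103 CPM in WT to 970 ± 90.6 CPM in *Akita* islets the log2 difference was -0.31 (SE 0.10, 95% interval -0.55 to -0.07), which did not pass over all genes (limma-voom, adjusted p = 0.172).

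*Vgf* encodes a granin first found as a nerve growth factor-inducible gene, whose peptides include TLQP-21. In WT islets it reached 110, 138 and 122 CPM in WT1, WT2 and WT3, and in *Akita* islets 59.4, 48.2 and 59.5 CPM in AK4, AK5 and AK6. The groups were far apart, and the *Akita* libraries differed little among themselves. The level fell from 123 ± 14.0 to 55.7 ± 6.50 CPM (SD, n = 3), a log2 fold change of -1.15 (SE 0.12, 95% interval -1.43 to -0.86) or 0.451-fold (95% interval 0.370 to 0.549). Its p-value was the 30th lowest of all genes tested (limma-voom, adjusted p = 0.0140). The size of the change was similar whichever library was left out, with log2 values of -1.23 to -1.04. The adjusted p rose above 0.05 without WT2 (0.0590), WT3 (0.0695) or AK6 (0.0667), settings in which hardly any gene was called.

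**Figure D1:**
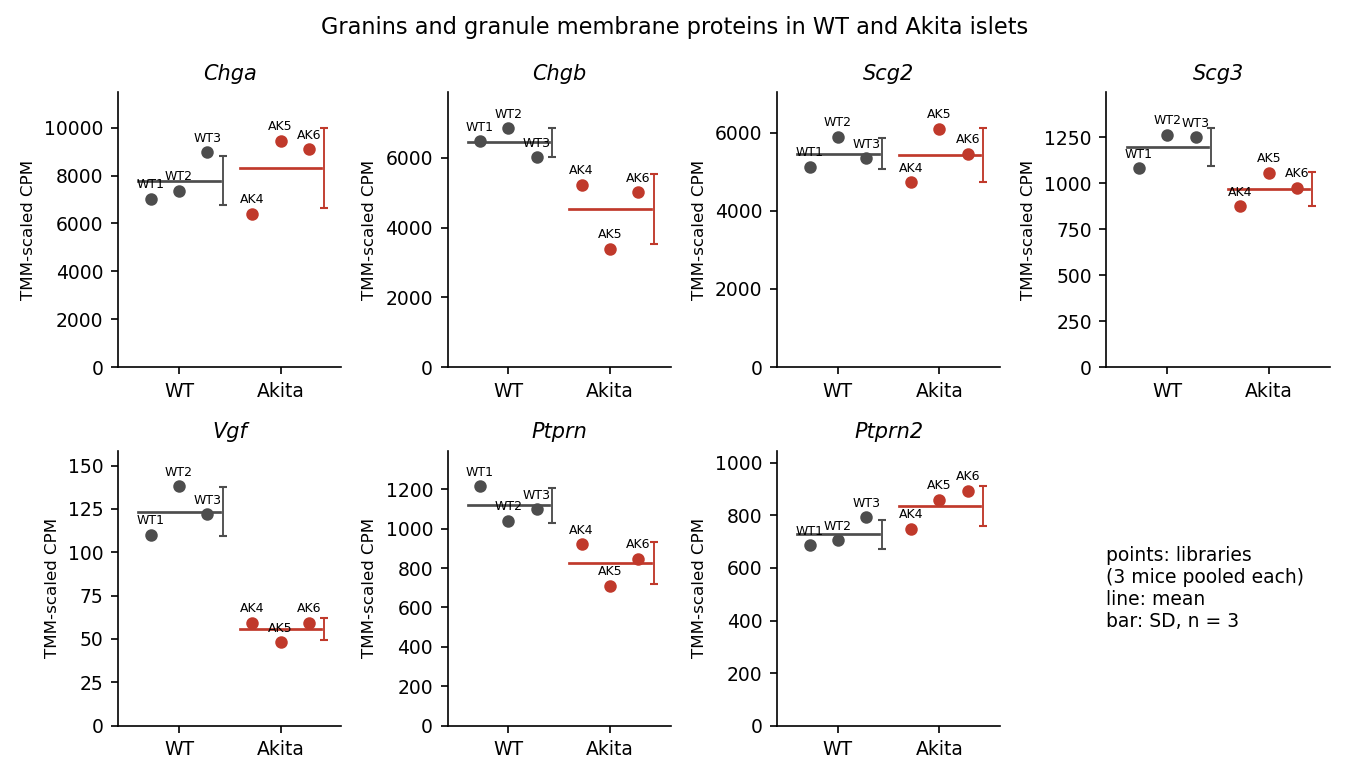
TMM-scaled CPM (vertical axes, from 0) of the 5 granin genes and of Ptprn and Ptprn2 in each WT (grey) and Akita (red) library, with the mean as a line and the SD as a bar (n = 3). The Vgf points of Akita islets, 48.2 to 59.5 CPM, lie far below those of WT islets, 110 to 138 CPM, while the Chga and Scg2 points of both genotypes overlap.

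The granule membrane proteins *Ptprn* and *Ptprn2* are paralogs, and their fold changes were of opposite sign. *Ptprn* was measured at 1214, 1040 and 1099 CPM in WT1, WT2 and WT3 and, in AK4, AK5 and AK6, at 921, 711 and 847 CPM. Every *Akita* library was below every WT library. The log2 fold change of -0.44 (SE 0.11, 95% interval -0.71 to -0.17), from 1118 ± 88.6 to 826 ± 107 CPM, did not pass over all genes (limma-voom, adjusted p = 0.109). Leaving out libraries gave log2 values from -0.52 to -0.33 and adjusted p values from 0.0582 to 0.263.

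*Ptprn2* had 688, 705 and 792 CPM in WT1, WT2 and WT3, beside 749, 860 and 894 CPM in AK4, AK5 and AK6. AK5 and AK6 were above all WT libraries and AK4 lay between WT2 and WT3. The means of 728 ± 56.1 CPM in WT and 834 ± 76.0 CPM in *Akita* islets differed by 0.19 on the log2 scale (SE 0.10, 95% interval -0.03 to 0.42), which did not pass (limma-voom, adjusted p = 0.333). Taken as a share of all counts, without scaling factors, *Ptprn2* was 0.0698% ± 0.0038 in WT and 0.0868% ± 0.0047 in *Akita* islets with no overlap (exact permutation test, two-sided, p = 0.1, the smallest that 3 libraries against 3 allow). On this unscaled view 25.9% of all genes tested were higher without overlap.

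**Figure D2:**
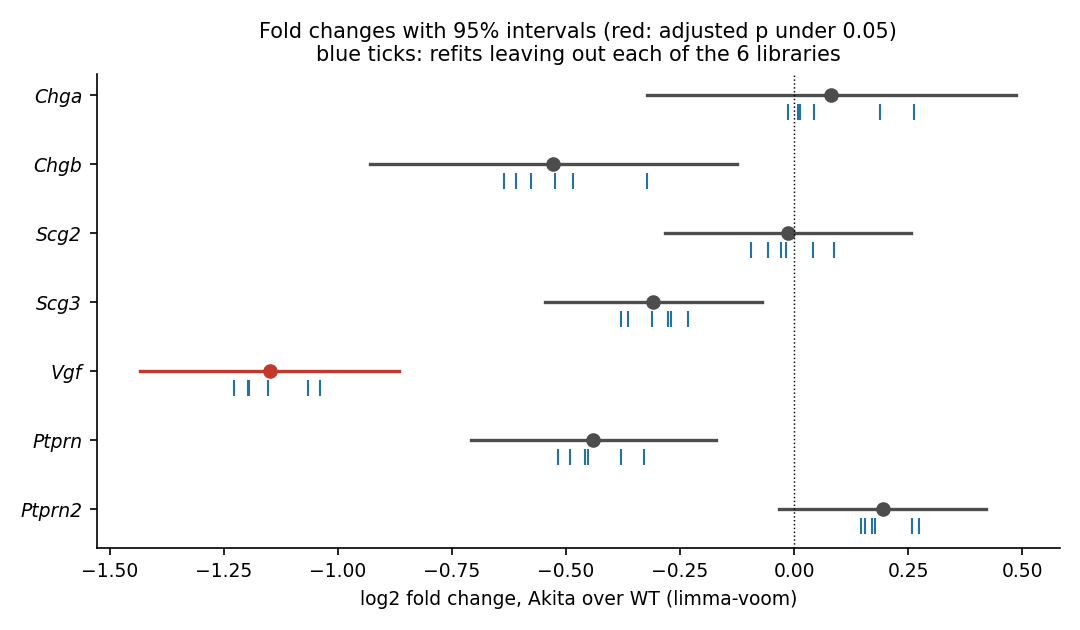
Log2 fold changes of Akita over WT islets by limma-voom (horizontal axis) for each gene (vertical axis), with 95% intervals, and below each the values after leaving out each library in turn (blue ticks). Only Vgf (red, -1.15) passed an adjusted p of 0.05. The intervals of Chgb, Scg3 and Ptprn lie below 0 and those of Chga, Scg2 and Ptprn2 include 0.

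Ratios between 2 transcripts of the same library need no scaling between libraries, and 11 were compared. For each, the smallest p that the exact permutation test can give is 0.1, so that none could pass. For ratios within this set of genes, the rate of separation over other pairs of genes was not computed. A lack of overlap in them is thus given as a description. The ratio of *Ptprn* to *Ptprn2* counts was 1.77, 1.48 and 1.39 in WT1, WT2 and WT3 and 1.23, 0.827 and 0.948 in AK4, AK5 and AK6. *Ptprn* thus gave more counts than *Ptprn2* in every WT library and fewer in 2 of 3 *Akita* libraries. The log2 ratio was lower in *Akita* islets by 0.64 without overlap (exact permutation test, two-sided, p = 0.1, adjusted p = 0.138 over the 11 ratios), and it remained lower by 0.51 to 0.79 whichever library was left out.

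For *Chga* to *Chgb* the ratio was 1.09, 1.08 and 1.49 in WT1, WT2 and WT3 and 1.23, 2.79 and 1.82 in AK4, AK5 and AK6. AK4 lay within the WT range and AK5 was far above it. The log2 difference was 0.61, beside SDs of 0.27 in WT and 0.59 in *Akita* libraries. The groups overlapped (exact permutation test, two-sided, p = 0.2). The difference ran from 0.31 without AK5 to 0.90 without AK4. The ratio of *Scg2* to *Scg3* ran from 4.28 to 4.75 in WT and from 5.39 to 5.78 in *Akita* libraries, a log2 difference of 0.29 with no overlap (exact permutation test, two-sided, p = 0.1). The ratio of *Vgf* to *Chga* counts ran from 0.0136 to 0.0187 in WT and from 0.0051 to 0.0093 in *Akita* libraries, again with no overlap and the same p.

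**Figure D3:**
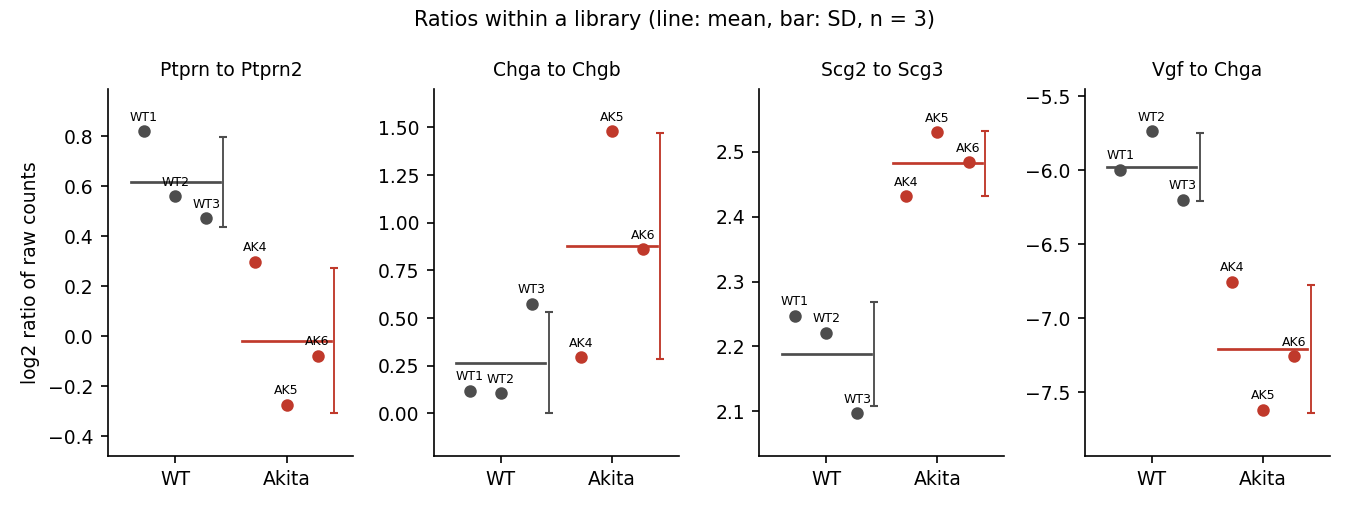
Log2 ratios of raw counts of 2 genes within each library (vertical axes, which do not start at 0), by genotype, with the mean as a line and the SD as a bar (n = 3). Ptprn to Ptprn2 and Vgf to Chga are lower, and Scg2 to Scg3 higher, in every Akita library, while for Chga to Chgb library AK4 lies among the WT libraries.

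Together the 7 genes took 2.19% ± 0.038 of all counts in WT and 2.18% ± 0.10 in *Akita* islets (SD, n = 3; exact permutation test, two-sided, p = 1). The 5 granins alone took 2.02% ± 0.048 and 2.01% ± 0.11. The difference in either share was smaller than the spread between pools. Most of both shares came from *Chga*, *Chgb* and *Scg2*, so they say little of the other genes. These shares are unscaled, and insulin transcripts took a smaller share in *Akita* islets. On this unscaled view 25.9% of all genes tested were higher without overlap and 5.17% lower. In TMM-scaled CPM the 5 granins summed to 19837 to 21717 in WT and 17302 to 20614 in *Akita* libraries. The sums of *Ptprn* and *Ptprn2* were 1745 to 1902 CPM in WT and 1571 to 1741 CPM in *Akita* libraries. Shares within the granins were then compared. *Chgb* made up 32.7%, 31.8% and 27.7% of granin counts in WT1, WT2 and WT3 and 30.2%, 16.9% and 24.3% in AK4, AK5 and AK6. *Chga* made up 35.5%, 34.2% and 41.3% against 37.1%, 47.2% and 44.2%. Both ranges overlapped between genotypes, through AK4. The share of *Scg3* was 5.70% ± 0.22 in WT and 5.02% ± 0.27 in *Akita* islets and that of *Vgf* 0.586% ± 0.048 and 0.291% ± 0.052, both without overlap (exact permutation test, two-sided, p = 0.1 each, adjusted p = 0.3 over 15 shares). For shares within the granins no rate of such separation over all genes was computed. As a share of all counts, *Scg3* overlapped between genotypes (exact permutation test, two-sided, p = 0.2).

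**Figure D4:**
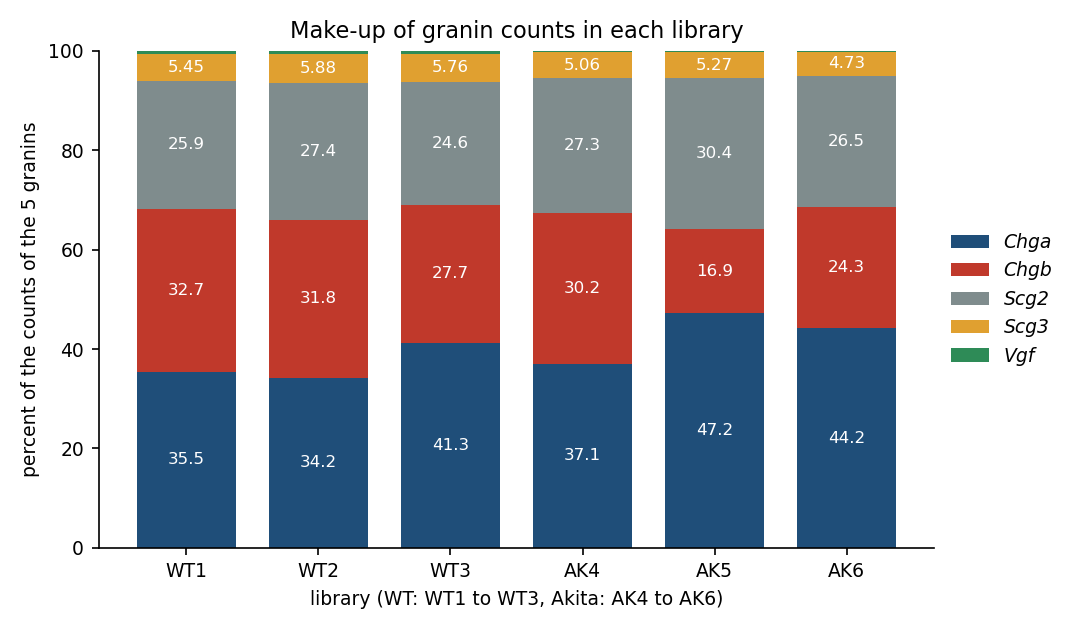
Percent of the counts of the 5 granins that each granin took in each library (vertical axis, stacked to 100, libraries along the horizontal axis). Counts are not divided by gene length, so segments compare libraries and not genes with each other. AK5 has the smallest Chgb segment, 16.9%, and the Vgf segment, under 1% in all libraries, is barely visible.

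Since insulin transcripts took a smaller share of the counts in *Akita* islets, a gene with an unchanged share would have a ratio to them 1.499-fold as high as in WT. That ratio was higher without overlap in 4 of the 7 genes, and in 74.6% of all genes tested. The ratio of *Chga* to *Ins1* plus *Ins2* was 1.73-fold, that of *Scg2* 1.61-fold, that of *Scg3* 1.32-fold and that of *Ptprn2* 1.86-fold as high in *Akita* as in WT libraries, each with no overlap. For *Chgb* the ratio was 1.13-fold and for *Ptprn* 1.20-fold, with overlap. The ratio of *Vgf* was 0.735-fold with no overlap, the only one of the 7 that was lower, and 0.578% of all genes tested were lower in this way. By the exact permutation test, two-sided, p was 0.1 for each ratio without overlap, 0.2 for *Ptprn* and 0.5 for *Chgb*.

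Levels of different genes were compared per kilobase of annotated exon. In WT islets the order was *Chga* (2827 ± 375 CPM per kilobase), *Chgb* (2353 ± 150), *Scg2* (2172 ± 157), *Scg3* (438 ± 37.5), *Ptprn* (263 ± 20.9), *Ptprn2* (84.6 ± 6.52) and *Vgf* (41.5 ± 4.69, SD, n = 3). The levels per kilobase of *Chgb* and *Scg2* overlapped across libraries, though *Chgb* was the higher within each WT library. All other neighbours were apart. In *Akita* islets the order was *Chga* (3021 ± 604), *Scg2* (2159 ± 275), *Chgb* (1658 ± 366), *Scg3* (354 ± 33.1), *Ptprn* (195 ± 25.1), *Ptprn2* (97.0 ± 8.83) and *Vgf* (18.7 ± 2.19). *Chgb* thus stood behind *Scg2* by the *Akita* means, but in AK4 *Chgb* (1907 CPM per kilobase) was above *Scg2* (1879). Across *Akita* libraries the levels per kilobase of *Chga* and *Scg2* overlapped, and so did those of *Scg2* and *Chgb*. Within each *Akita* library *Chga* was above *Scg2*. With the longest annotated transcript as length, *Chga* in WT came to 4137 CPM per kilobase, *Scg3* to 503, *Ptprn* to 315 and *Ptprn2* to 173.

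The *Akita* libraries differed among themselves in a pattern that ran across the genes. AK5 had the highest *Chga*, *Scg2* and *Scg3* and the lowest *Chgb*, *Vgf* and *Ptprn* of the *Akita* libraries. AK4 had the lowest *Chga*, *Scg2*, *Scg3* and *Ptprn2* and the highest *Chgb* and *Ptprn*. AK5 also had the highest *Gcg* of all 6 libraries at 59488 CPM, beside 38215 in AK4, 55023 in AK6 and 26429 to 40965 CPM in WT libraries. Among *Akita* libraries AK5 was the lowest and AK4 the highest in summed acinar markers. The part of these cell type markers in the levels of the 7 genes was not tested.

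Markers of islet and other cell types were read beside these results. Of 12 β-cell markers 4 fell (*Ins2*, *Mafa*, *Nkx6-1* and *G6pc2*) and none rose, with a median log2 fold change of -0.57. At an unadjusted p under 0.05, 9 were lower and 1 higher (*Trpm5*, log2 fold change 0.21). The summed level was 223503 to 247394 CPM in WT and 133128 to 157852 CPM in *Akita* libraries, nearly all of it from *Ins1*, *Ins2* and *Iapp*. *Mafa*, a transcription factor of mature β-cells, fell from 194 ± 26.1 to 91.5 ± 15.5 CPM (limma-voom, adjusted p = 0.0306). Of 16 α-cell markers 15 were tested and none passed, while at an unadjusted p under 0.05 there were 5 above and 1 below WT. Of the 15, 13 had a log2 fold change above 0 (median 0.46). The list of 16 summed to 28557 to 43735 CPM in WT and 40142 to 62520 CPM in *Akita* libraries. The δ-cell list, of which 6 genes were tested, summed to 3493 to 3917 CPM in WT and 3765 to 4894 CPM in *Akita* libraries. Sums of 7 PP- and ε-cell markers were 4608 to 5494 and 6059 to 9002 CPM, and no tested gene of either list passed. At an unadjusted p under 0.05, 2 δ-cell markers were higher and 0 lower, and 3 PP- and ε-cell markers were higher and 1 lower (*Id4*, log2 fold change -0.56). Of the 24 acinar markers tested 0 passed, and 0 had an unadjusted p under 0.05. Of these, 23 had a log2 fold change below 0 (median -0.76). The sums of the list overlapped widely, at 412 to 8641 CPM in WT and 367 to 8972 CPM in *Akita* libraries. Of 11 neural and Schwann markers tested 1 rose, *Th*, the tyrosine hydroxylase of catecholamine synthesis, from 30.6 ± 2.97 to 63.9 ± 6.10 CPM (limma-voom, adjusted p = 0.0132). Of the 11, 8 had a log2 fold change above 0 (median 0.55). At an unadjusted p under 0.05, 4 were higher and 2 lower (*Ngfr* and *Syn1*, log2 fold changes -0.85 and -0.32). The list summed to 298 to 322 CPM in WT and 345 to 359 CPM in *Akita* libraries. The largest part of these sums was *Snap25*, at 165 ± 6.71 CPM in WT and 171 ± 14.3 CPM in *Akita* islets. None of the ductal, endothelial, macrophage, mesenchymal and red blood cell genes passed. All 10 ductal markers had a log2 fold change below 0 (median -0.24), 1 at an unadjusted p under 0.05, with sums of 1245 to 2265 CPM in WT and 1099 to 1441 CPM in *Akita* libraries. All 9 macrophage markers tested were also below 0 (median -0.62), 2 at an unadjusted p under 0.05, with sums of 179 to 293 and 105 to 268 CPM. The 4 red blood cell genes tested were above 0 (median 1.25), each at an unadjusted p under 0.05. Their list of 5 genes summed to only 5.08 to 8.12 CPM in WT and 9.72 to 24.6 CPM in *Akita* libraries. Of 10 mesenchymal markers 9 were above 0 (median 0.37) and of 10 endothelial markers 3 (median -0.08), with 1 higher and 0 lower in each list at an unadjusted p under 0.05. With the acinar score of each library as a covariate, *Vgf* remained the 1 gene of the 7 that passed. The part that cell type markers played in the change of *Vgf* and in the values of *Chgb*, *Scg3* and *Ptprn* was not tested.

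The other genes of the granule pathway were read from 4 lists, whose genes were all tested. Among granin relatives and prohormone processing genes, 1 of 7 rose and 1 fell, with a median log2 fold change of 0.0029. At an unadjusted p under 0.05, 3 were higher and 1 lower. *Pcsk1*, the convertase that starts proinsulin cleavage and also cuts granins, was at 1376, 1862 and 1407 CPM in WT1, WT2 and WT3 and 782, 553 and 690 CPM in AK4, AK5 and AK6. The fall came to -1.20 on the log2 scale (SE 0.16) and passed the test (limma-voom, adjusted p = 0.0295), beside -1.15 for *Vgf*. *Nucb1*, a Golgi calcium-binding protein, rose from 309 ± 22.2 to 442 ± 30.8 CPM with a log2 difference of 0.51 (SE 0.09; by limma-voom, adjusted p = 0.0428). *Pcsk1n*, the granin-like inhibitor of that convertase, and *Nucb2*, the precursor of nesfatin, were higher in every *Akita* library but did not pass (log2 fold changes 0.56 and 0.36, limma-voom, adjusted p = 0.147 and 0.174).

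The other 3 genes of that list were *Scg5*, *Cpe* and *Pcsk2*. *Scg5*, the chaperone 7B2 of the convertase *Pcsk2*, was 2006, 2046 and 1834 CPM in the WT libraries and 1407, 2819 and 1905 CPM in AK4, AK5 and AK6. AK4 and AK5 thus enclosed all WT values, as for *Chga*. Neither *Cpe*, which trims the cut peptides (log2 fold change -0.15), nor *Pcsk2* (-0.03) passed the test, and both overlapped between genotypes.

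Of 27 genes of granule formation 1 fell and 0 rose, with a median log2 fold change of -0.04. At an unadjusted p under 0.05, 2 were higher and 5 lower. The one that fell was *Ica1l*, a BAR-domain relative of the islet autoantigen ICA69, at 50.9, 46.6 and 43.9 CPM in WT1, WT2 and WT3 and 29.8, 30.4 and 32.2 CPM in AK4, AK5 and AK6 (log2 fold change -0.62, SE 0.09; limma-voom, adjusted p = 0.0313). *Ap1s1*, a subunit of the AP-1 adaptor of the trans-Golgi network, *Prkd1*, a kinase of Golgi budding, and *Hook3*, a Golgi-linked microtubule adaptor, were below WT in every *Akita* library without passing (log2 fold changes -0.38, -1.14 and -0.25, limma-voom, adjusted p = 0.0722, 0.127 and 0.172).

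Among 29 genes of the granule membrane and its tethering 1 rose and 2 fell, with a median log2 fold change of -0.03. At an unadjusted p under 0.05, 4 were higher and 7 lower. *Sytl4* (granuphilin), which docks insulin granules through *Rab27a*, was at 516, 633 and 493 CPM in WT1, WT2 and WT3 and 267, 236 and 197 CPM in AK4, AK5 and AK6. It fell by 1.23 on the log2 scale (SE 0.14; limma-voom, adjusted p = 0.0146). *Rph3a* (rabphilin), another Rab effector, had 16.6, 13.7 and 7.59 CPM in WT1, WT2 and WT3 and 1.12, 0.476 and 0.0796 CPM in AK4, AK5 and AK6 (limma-voom, adjusted p = 0.0428). At levels this low its fitted fold change depends on the small count added before the log and is not given.

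*Cadps2*, a priming factor of dense-core granules, rose from 11.8, 12.4 and 14.5 CPM in WT1, WT2 and WT3 to 25.9, 32.5 and 30.7 CPM in AK4, AK5 and AK6 (log2 fold change 1.21, SE 0.14; limma-voom, adjusted p = 0.0146). *Atp6ap1*, an accessory subunit of the proton pump that acidifies granules, was lower in every *Akita* library but did not pass (log2 fold change -0.39; limma-voom, adjusted p = 0.0603).

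Of 14 known regulators of granule genes 1 fell and none rose, with a median log2 fold change of -0.05. At an unadjusted p under 0.05, 1 was higher and 1 lower. *Crem*, which encodes activators and repressors that bind the cAMP response element shown above for *Chgb* and *Scg2*, had 90.3, 96.0 and 91.5 CPM in WT1, WT2 and WT3, compared with 51.2, 31.7 and 49.2 CPM in AK4, AK5 and AK6. It fell by 1.11 on the log2 scale (SE 0.17; limma-voom, adjusted p = 0.0382). Of the 2 genes with the full element among the 6 whose windows were read, *Chgb* did not pass and *Scg2* overlapped fully between genotypes. The window of *Vgf* was not read. The part of *Crem* in the levels of these genes was not tested. *Mlxipl*, the glucose-responsive factor ChREBP, was higher in every *Akita* library without passing (73.8 ± 13.3 and 135 ± 23.0 CPM; limma-voom, adjusted p = 0.0603). *Ptbp1*, an RNA-binding protein reported to stabilise granule mRNAs, and *Isl1* did not pass (log2 fold changes -0.12 and 0.25, limma-voom, adjusted p = 0.386 and 0.404).

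Of the hormones, *Ins2* fell from 133817 ± 9575 to 76526 ± 8484 CPM (log2 fold change -0.81, SE 0.12; limma-voom, adjusted p = 0.0332) and *Ins1* did not pass (-0.49, adjusted p = 0.0573). *Pyy* and *Ppy*, hormones of PP-cells, were higher in every *Akita* library without passing (log2 fold changes 0.60 and 0.48, limma-voom, adjusted p = 0.110 and 0.175). Over these 4 lists and the hormones 8 genes were called. Without WT2, WT3 or AK6 there were 0, and without WT1 or AK5 there was 1.

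**Figure D5:**
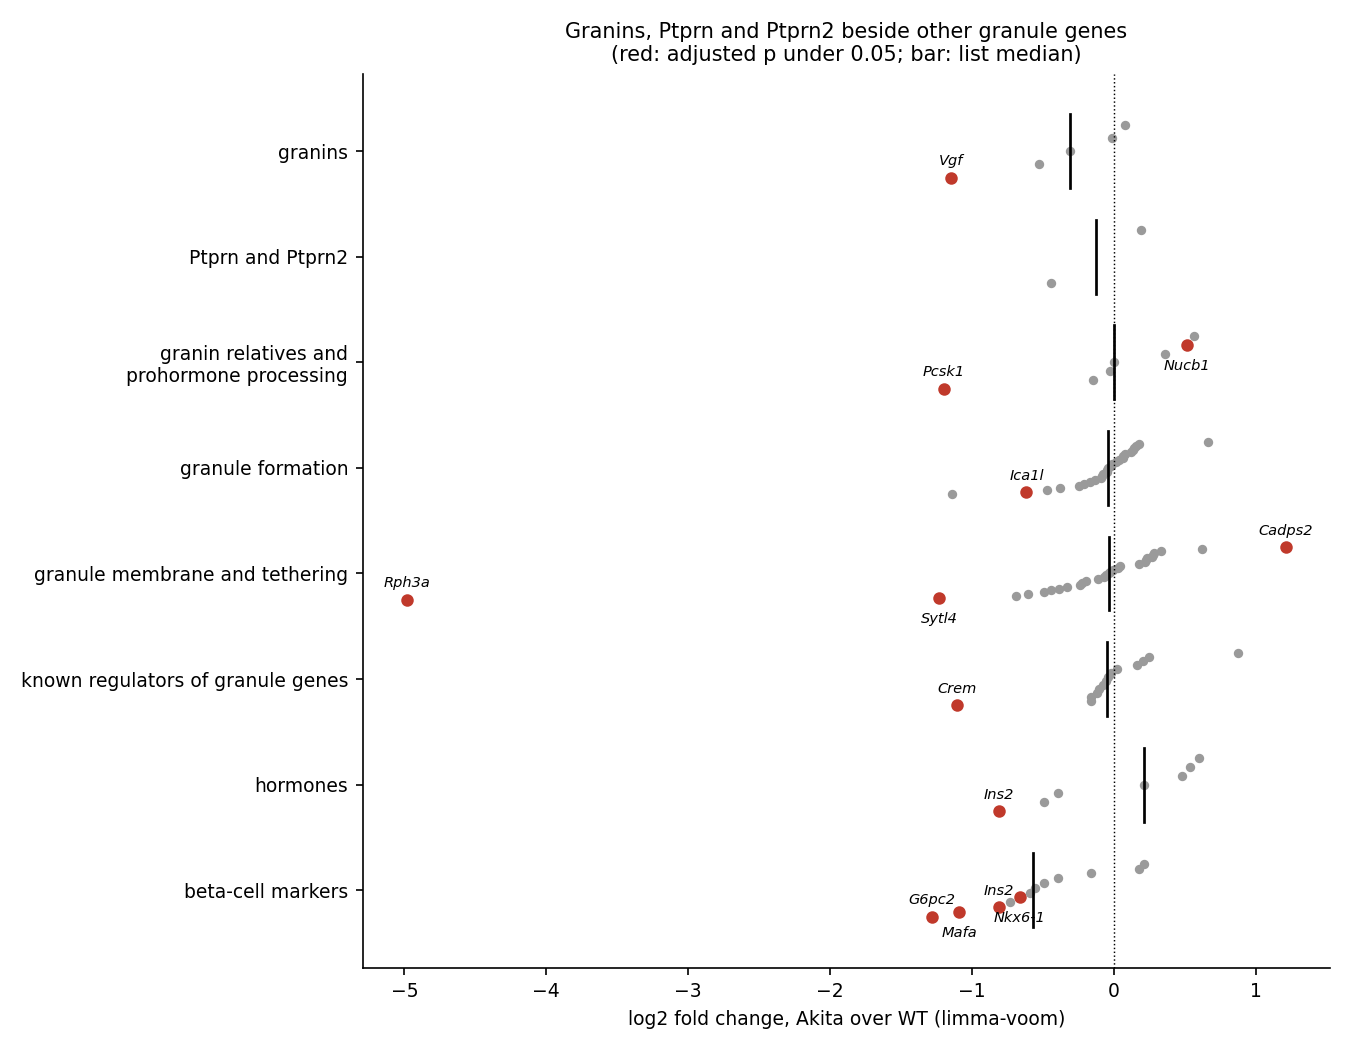
Log2 fold change of Akita over WT islets (horizontal axis) of each tested gene in the granin and granule lists, the hormones and the β-cell markers (rows), with list medians as bars and genes at an adjusted p under 0.05 in red. The medians of the granule lists lie near 0, at 0.0029, -0.04, -0.03 and -0.05, and that of the β-cell markers at -0.57.

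For each gene, the tested genes of at least 5 CPM whose log2 levels followed it most closely over the 6 libraries were listed by Pearson's r. The 6 libraries share 2 genotypes and many genes reach high values with so few points, so r is given as a description. Among those closest to *Vgf* were *Idh3a* (r = 0.995) and *Lrrfip2* (0.995), of which *Idh3a*, a subunit of the mitochondrial isocitrate dehydrogenase, also fell (log2 fold change -0.58; limma-voom, adjusted p = 0.0394). Among those closest to *Chgb* were *Rexo2* (0.995) and *Ttyh1* (0.995). *Chga* was followed by *C1qtnf6* (0.994), *Zfp956* (0.992) and *Itfg2* (0.989), and *Scg2* by *Lysmd2* (0.996), *Zfp938* (0.994) and *Efcab2* (0.982). The closest to *Scg3* were *Sec22a* (0.994), *Sfxn2* (0.991) and *Tspan9* (0.990). *Ptprn* was followed by *Spata6* (0.996), *Nras* (0.992) and *Cyb561d2* (0.989), and *Ptprn2* by *Gnas* (0.994), *Lpin1* (0.993) and *Msantd3* (0.987).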

How the data were processed

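RNA of whole islets was measured in 3 WT and 3 *Akita* pools. Per the labels and methods, the libraries came from poly(A) selection and hold no strand information. Single reads were trimmed by the authors with cutadapt 1.12, mapped with STAR 2.5.2b on GRCm38, and assigned to genes with HTSeq 0.7.2. Annotation release and strand option: not given in the sources used here. Raw read counts per gene fill the deposited table, except for 6815 of its 47729 genes, which carry a mark. Its 6 columns of normalized counts, and the fold changes and p-values of the authors' DESeq2 1.12.4 comparison, were left out. WT columns match WT samples, while AK4 to AK6 match the *Akita* group but no single sample.

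Genes with those marks were left out. On the whole numbers of the other genes, limma-voom (R 4.3.3, limma 3.58.1) without covariates took the place of the count model planned. The plan named this replacement for columns that hold such marks. A gene was tested if at least 3 libraries reached the CPM that 10 counts make in the library of median size, with 15 counts or more in total. TMM trimming was 0.3 for log ratios and 0.05 for levels, and voom added 0.5 counts. Genes with an adjusted p (Benjamini–Hochberg, all tested genes) under 0.05 were called. The fit was also run on simulated counts in which all genes had the same dispersion. Genes of these data differ in spread, so that run does not show how the fit performs on them. Ratios and shares within libraries used exact permutation tests (Python 3.11.15, SciPy 1.17.1, pandas 2.3.3). Exon lengths and overlaps came from GENCODE M21, which may not be the authors' release, and whose gene ends differ from the deposited ones for *Chga* and *Scg3*. Likeness used log2 CPM with 0.5 added.

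The genes named were the 7 genes described, in each list every gene past the threshold plus those of lowest adjusted p up to 4, the 3 closest genes by likeness, and hormones. *Scg5*, *Cpe* and *Pcsk2* complete their list. A few genes that this rule gave are not reported here. The 7 genes and the lists were chosen with earlier results of these data known. Depths of 22069554 to 27043169 counts limit weak genes, and counting precision covers counting error only. Alternatives were other scaling factors and filters, an acinar covariate, library weights, limma-trend and each library left out.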

Additional observations from a re-analysis of the deposited data

How the results depend on the processing

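Of the 7 genes, *Vgf* was lower in all 15 alternative settings and passed in 12, failing without WT2, WT3 or AK6. The other 6 passed in none. *Chgb*, *Scg3* and *Ptprn* stayed below 0 and *Ptprn2* above 0 in all 15, while *Chga* changed sign in 1 and *Scg2* in 4. The number of the 7 genes called lower ran from 0 to 1 as single libraries were left out. Over all genes, 117 higher genes became 450 with library totals alone, which moved the median of all genes by 0.12 on the log2 scale, and 272 with quality weights. The 132 lower genes became 249 with quality weights. Without single libraries there were 0 to 373 higher and 0 to 267 lower genes, the largest numbers arising without AK4. The 8 called genes of the granule lists and hormones became 14 with library totals alone and 0 to 12 without single libraries. The cause of these shifts was not tested. By the longest transcript, levels per kilobase in WT were 4137 for *Chga*, 503 for *Scg3*, 315 for *Ptprn* and 173 for *Ptprn2*. No paired analysis was possible because the *Akita* columns do not carry the replicate numbers of the labels. The planned count models and the comparison of protein sequences were not run. With 3 pools per genotype, the 95% intervals of *Chga*, *Scg2* and *Ptprn2* reach 0.49, 0.26 and 0.42 on the log2 scale, so rises of that size cannot be told from none.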
